A study of Mus musculus with 156 samples.

Results

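The colon RNA-seq libraries of 22 male mice, 12 of 30 months and 10 of 2 months, were compared for how much the mice of one age differed from each other rather than for their average expression. These 22 libraries, of 156 libraries in the whole series and of 52 from colon, were taken by tissue and age group, and the labels place all of them in the library batch Run 3. The study followed C57BL/6J/Ukj mice, an in-house strain of the C57BL/6J background without that strain's Crb1 and Nnt mutations, from early adulthood to an age that few animals of the strain reach; every mouse was untreated, kept only for aging and sampled in colon, liver and brain. Per the study's methods, a rinsed piece of the left side of the mid colon was frozen, so that mucosa, muscle wall, nerves and any lymphoid tissue of the piece entered one RNA sample, and the age range within the oldest group was wider than within the youngest. Mice of one birth cohort were housed together, at most 2 mice came from one cage, and which mice shared a cage or a day of killing was not used here, so the animals of a group may be less independent than their number.

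The colon is lined by a single layer of absorptive colonocytes, mucus-secreting goblet cells and rarer hormone-secreting cells that is continuously renewed from dividing cells at the base of the crypts. Beneath it lie connective tissue with plasma cells that secrete IgA, small lymphoid follicles rich in B cells, and layers of smooth muscle with their own nervous system. A group of animals is described both by the level of a transcript and by the spread of that level between animals, and a group can hold its level while its members move apart. Counting noise alone gives a larger spread on a log scale to weakly expressed genes, which is why the spread was compared at a matched mean.

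Total counts ranged from 30962806 to 37993476 at 2 months and from 27812497 to 39904372 at 30 months, with medians of 33994980 and 33992168. Of 55471 listed genes, 17394 passed the filter on low counts and were tested. The normalisation factors (trimmed mean of M values, TMM) lay between 0.974 and 1.04 at 2 months and between 0.962 and 1.03 at 30 months. Every one of the 20 colonocyte markers examined was expressed, and Muc2, the main gel-forming mucin of goblet cells, reached 14894 to 25034 CPM (counts scaled to library size) at 2 months and 15550 to 23040 CPM at 30 months. Of 12 markers of squamous epithelium 10, and of 15 markers of pancreas and other gut segments 10, were too low to be tested.

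The spread of a gene was measured as its standard deviation (SD) of log2 CPM over the mice of a group. The median SD over all tested genes was 0.18 at 2 months and 0.20 at 30 months. The variance was the larger one at 30 months for 10313 genes, 59.3% of those tested, and the median of the log2 ratio of the variances, after subtracting the part that the dependence of variance on mean expression gives, was 0.27. A jackknife over mice gave a standard error of 0.24 for this median, and leaving out 1 mouse at a time gave values from 0.10 to 0.36. The shift of the median was therefore about as large as its error. It was positive in each of 5 equal bins of genes ordered by mean expression, at 0.28 in the lowest bin, 0.37, 0.31 and 0.24 in the next ones and 0.18 in the highest, but in the 2 highest bins its lowest value with 1 mouse left out was below 0, at -0.0051 and -0.029.

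**Figure D1:**
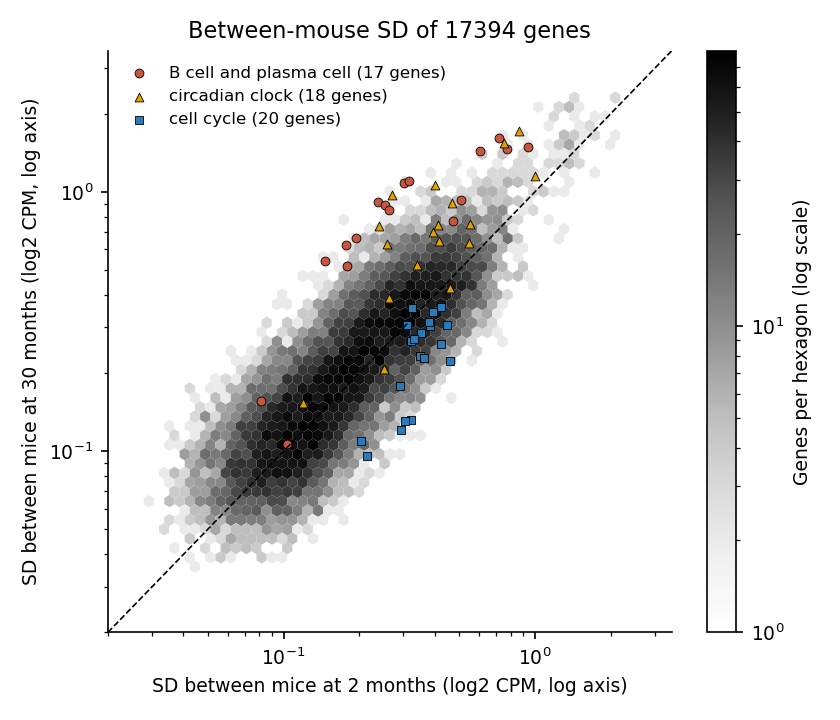
SD of log2 CPM between mice for each tested gene at 2 months (x axis) and at 30 months (y axis), both axes logarithmic, with the number of genes per hexagon in grey and the line of equal SD dashed. The cloud of 17394 genes lies along the line with 59.3% of genes above it; B cell and plasma cell genes (circles) sit above the line, most clock genes (triangles) too, and cell cycle genes (squares) mostly below it.

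No single gene passed the test of a difference in spread. The test compared the absolute deviations of the mice from their own group mean between the ages with limma, and no gene of 17394 reached 0.05 in either direction after Benjamini-Hochberg adjustment (0% called; smallest adjusted p = 0.147). At an unadjusted p under 0.05, limma gave 1180 genes with the larger spread at 30 months, 6.78% of the genes tested, and 516 with the smaller spread, 2.97%, or 1696 genes together (9.75%). Among the 15670 genes whose group means lay within 0.5 on the log2 scale, limma again called 0 genes, with 989 and 475 at an unadjusted p under 0.05 and a median ratio of 0.26. Without the filter on low counts the balance at an unadjusted p turned, to 2776 genes with the larger and 3116 with the smaller spread of 34070, and limma called 1082, of which 78 are among the 17394. A likelihood ratio test on the counts themselves, with a negative binomial dispersion for each age, called 2 genes (0.0115%), both with the larger dispersion at 30 months, and gave 1268 (7.29%) and 519 (2.98%) at an unadjusted p under 0.05. The genes and gene groups below are therefore described by their values and by counts at an unadjusted p, to be read against 6.78% and 2.97%, and none of them was called by limma.

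The 2 genes called on the counts were Bank1, an adaptor of B cell receptor signalling, and the pseudogene Rps6-ps4. Bank1 lay between 0.818 and 1.21 CPM in the 10 mice of 2 months, with a median of 1.05, and between 0.593 and 7.70 CPM in the 12 mice of 30 months, with a median of 1.68. Its adjusted p was 0.0469 in the negative binomial likelihood ratio test, and its mean log2 CPM was 0.79 higher at 30 months, so that it is not among the genes of matched mean. Rps6-ps4 was between 0.252 and 0.572 CPM at 2 months and between 0.210 and 18.9 CPM at 30 months, around a median of 0.509. Reads of this pseudogene can be shared with Rps6, and its value at 30 months rests on the highest mouse.

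By comparison, mean expression differed between the ages for many genes: edgeR's quasi-likelihood test called 2166 genes higher (12.5%) and 1775 lower (10.2%) at 30 months, at an adjusted p of at most 0.05.

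Each mouse was also given a distance from its group, the root mean square of its log2 deviations over the 17394 genes. The distances were 0.268 to 0.369 at 2 months (mean 0.312 ± 0.030, SD, n = 10) and 0.280 to 0.433 at 30 months (mean 0.353 ± 0.048, SD, n = 12), so the ranges overlapped. The largest was that of mouse N5 of 30 months, which was the farthest of its group for 22.1% of the genes, and the smallest was that of mouse N6 of 2 months. The mean was 0.041 larger at 30 months (two-sided permutation test with 100000 resamples, p = 0.0313; adjusted p = 0.150 over 5 distance comparisons). The p rose above 0.05 when 1 mouse, N5, N6 or N8 of 2 months or N2, N5 or N6 of 30 months, was left out, with differences between 0.032 and 0.038 and p from 0.0529 to 0.0623. When the root mean square was replaced by the median, the median absolute deviation over the genes of a mouse differed by 0.0079 between the ages (permutation p = 0.457). The 164 variable, diversity and joining segments of immunoglobulins and T cell receptors, 0.943% of the genes, carried 18.1% of the summed squared deviation at 2 months and 18.04% at 30 months, and without them the difference was 0.036 (permutation p = 0.0576).

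**Figure D2:**
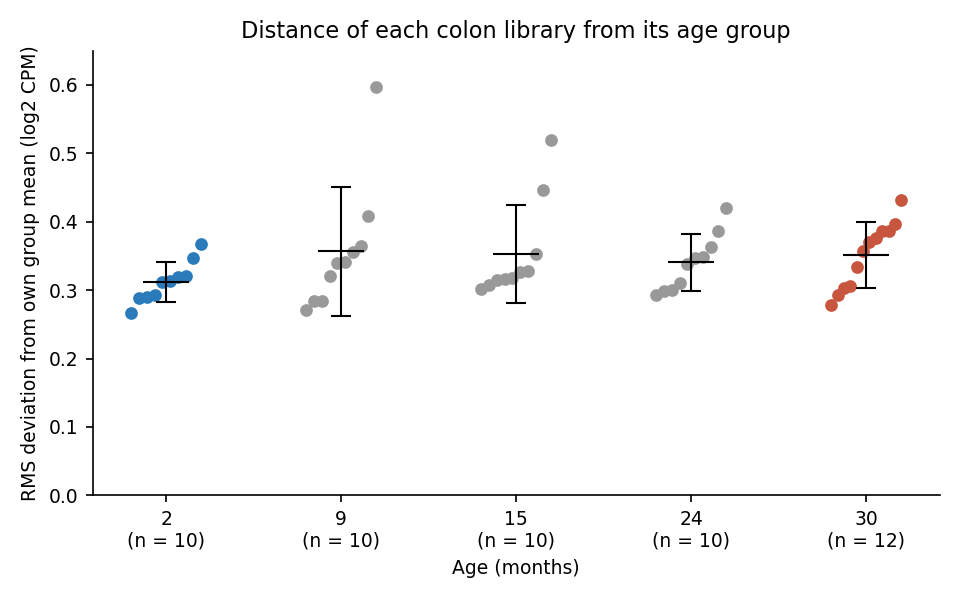
Distance of each colon library from the mean of its age group (root mean square log2 deviation over the 17394 genes, y axis) for the 5 ages (x axis, months); points are mice, bars the mean ± SD. The mice of 2 months lie between 0.267 and 0.368 and those of 30 months between 0.278 and 0.432, with the highest single mouse, at 0.597, in the 9-month group.

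The other ages of colon placed these values in context without forming a series. Over the same genes on one scale for all 52 colon libraries, the median SD was 0.18 at 2 months, 0.25 at 9 months, 0.23 at 15 months, 0.19 at 24 months and 0.20 at 30 months. The smallest of the 5 SDs fell at 2 months for 32.7% of the genes and at 30 months for 17.4%, and the largest fell at 9 months for 40.4% and at 30 months for 16.7%. By the SD, the spread was thus lowest in the youngest group and highest at 9 months, and that at 30 months lay between them. The 9-month SDs include mouse N5, at a distance of 0.597 against at most 0.409 in the others of its group. The median distance of the mice on this scale was 0.313, 0.341, 0.323, 0.343 and 0.364 at 2, 9, 15, 24 and 30 months, so by that measure 9 months was not the highest. A comparison that shares no mouse with the main one, 24 against 9 months, went the other way: the median trend-adjusted ratio was -0.61, limma called 0 of 17165 genes (0%), and at an unadjusted p under 0.05 it gave 320 genes with the larger spread (1.86%) and 636 with the smaller spread (3.71%) at 24 months. The mean distance was 0.335 at 24 months and 0.353 at 9 months, each with n = 10 (permutation p = 0.670). Both the 9-month mean and the ratio of -0.61 include the outlying mouse N5 of 9 months. Without that mouse limma again called 0 genes.

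The genes with the smallest unadjusted p for a larger spread at 30 months, among named genes of matched mean above 1 on the log2 CPM scale, were Scrn3, Trappc13, Slc39a4, Lyn and Zfp24. None was called, with adjusted p from 0.147 to 0.215 in limma. Scrn3 (secernin 3; GRCm38 chr2:73312601-73337818) ranged from 15.4 to 18.1 CPM at 2 months (median 17.3) and from 12.5 to 20.7 CPM at 30 months (median 14.1), with SDs of 0.084 and 0.29. Its lowest mouse of 30 months was N11 and its highest N6. Scrn3 was the gene called when mouse N3 of 30 months was left out (adjusted p = 0.00289). Trappc13, a subunit of a vesicle tethering complex (chr13:104142149-104178469), stayed within 35.2 to 37.6 CPM at 2 months (median 36.3) and spanned 29.4 to 41.1 CPM at 30 months (median 31.8), with SDs of 0.031 and 0.17. The young mice of Trappc13 thus fell inside the range of the old ones.

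Slc39a4, the zinc importer of the intestinal epithelium (chr15:76612383-76617384), lay between 250.3 and 305 CPM at 2 months (median 278) and between 192 and 362 CPM at 30 months (median 260.1), with SDs of 0.085 and 0.31. Lyn, a Src-family kinase of B cells and myeloid cells, was at 29.2 to 33.7 CPM and then at 25.9 to 37.2 CPM, with SDs of 0.060 and 0.18. Zfp24, a zinc finger transcription factor, was at 34.7 to 37.6 CPM and then at 30.6 to 43.0 CPM, with SDs of 0.032 and 0.16. The deviations of 5 genes followed those of Scrn3 most closely across the 12 mice of 30 months: Atxn7l3b, Rnf168, Macrod2, Rbm6 and Mterf3, with Pearson correlations of 0.94 to 0.96, given as a description.

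In the opposite direction the smallest unadjusted p belonged to E2f1, Acvr2a, Plin3, Spred1 and Fam83f, all with an adjusted p of 0.215 in limma. E2f1, a transcription factor of the entry into S phase (chr2:154559407-154569892), ranged from 8.40 to 13.8 CPM at 2 months (median 9.95) and from 10.7 to 13.4 CPM at 30 months (median 11.7), with SDs of 0.26 and 0.085. Spred1, an inhibitor of Ras and MAP kinase signalling, lay between 34.4 and 59.9 CPM and then between 43.1 and 55.4 CPM, with SDs of 0.28 and 0.10. For both genes the mice of 30 months lay inside the range of the mice of 2 months. Plin3, a lipid droplet coat protein, was at 71.6 to 108.1 CPM at 2 months and at 93.1 to 108.4 CPM at 30 months, and Acvr2a, an activin receptor, at 43.7 to 57.0 and 40.7 to 48.8 CPM.

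Among 43 gene lists for the cell types and pathways of the colon, the list of B cell and plasma cell genes had the largest median ratio. The variance was the larger one at 30 months for all 17 of its tested members (Fcer2a was too low), against 59.3% of all genes. Of these, 14 had an unadjusted p under 0.05 in that direction and 0 in the other (background 6.78% and 2.97%), and the median ratio was 3.48 beside 0.27 for all genes. Leaving out 1 mouse gave 11 to 15 members and a median between 2.60 and 3.67. Members of one list share the cells that express them, so these are not 17 independent observations, and in a bulk sample fewer cells of a type and less RNA per cell cannot be told apart.

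Cd79a, a signalling chain of the B cell receptor (chr7:24897381-24902197), was between 2.34 and 4.19 CPM in the 10 young mice (median 3.44) and between 2.80 and 29.8 CPM in the 12 old mice (median 8.11). The SD was 0.24 at 2 months and 0.91 at 30 months, and the mean absolute deviation differed by 0.58 ± 0.17 (SE; limma, p = 0.00198, adjusted p = 0.292). Mouse N3 was lowest and mouse N11 highest at 30 months, and N3 lay inside the range of the young group. Cd22, an inhibitory co-receptor of B cells, showed the same end mice, with 0.980 to 1.96 CPM at 2 months and 1.3 to 16.6 CPM at 30 months, and SDs of 0.31 and 1.10.

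Genes of antibody secretion shared the lowest old mouse but had another highest one. Jchain, which joins IgA and IgM into polymers, ranged from 546 to 759 CPM at 2 months and from 342 to 1430 CPM at 30 months, with SDs of 0.15 and 0.54. Igha, the constant region of IgA, ranged from 1807 to 2549 CPM and from 846 to 5370 CPM, with SDs of 0.19 and 0.67. For both, N3 was the lowest and N5, not N11, the highest of the old mice. Sdc1, a proteoglycan that the epithelium also expresses, had the smallest ratio among the 9 members with a mean log2 CPM of at least 1, at 0.05. The summed CPM of the list was 4165 to 5531 at 2 months and 2500 to 11085 at 30 months. For 12 of the 17 members the mean was also higher at 30 months (edgeR, adjusted p of at most 0.05), and for 0 it was lower; only 6 of the 17 had group means within 0.5 of each other, so most ratios of this list rest on the trend adjustment rather than on matched means. The median SD of the list was 0.26 at 2 months and 0.70, 0.69, 0.60 and 0.88 at 9, 15, 24 and 30 months, so that the youngest group stood below all the others.

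Lymphoid follicle chemokines and stroma and MHC class II presentation genes lay in the same direction. Of 9 tested follicle genes, 4 had an unadjusted p under 0.05 with the larger spread at 30 months and 0 with the smaller, with a median ratio of 2.06. Cxcl13, the chemokine that draws B cells into follicles, ranged from 5.11 to 8.17 CPM at 2 months (median 6.26) and from 8.28 to 35.0 CPM at 30 months (median 15.9), so the groups did not overlap in level, while the SDs were 0.24 and 0.64. Ltb, a lymphotoxin subunit needed for lymphoid structures, was at 1.99 to 2.96 CPM and 1.88 to 7.21 CPM, and Ccr6, a chemokine receptor of follicular lymphocytes, at 0.146 to 0.392 and 0.264 to 4.43 CPM. Cxcl13, Ltb and Ccr6 were highest in mouse N11, as was Cd79a. Madcam1, the vessel address molecule for gut lymphocytes, had SDs of 0.41 at 2 months and 0.42 at 30 months. The means of 8 of the 9 genes were higher at 30 months (edgeR, adjusted p of at most 0.05), and 1 had group means within 0.5. Of 10 MHC class II genes, 4 had an unadjusted p under 0.05 with the larger spread at 30 months and 0 the reverse, the median ratio was 2.14 and 2 had matched means. Those with the largest ratios, H2-Ob (3.56) and H2-Oa (3.22), encode the chains of a class II modulator found mainly in B cells; H2-Ob was at 2.37 to 4.13 CPM and then at 1.44 to 13.9 CPM. H2-Ab1, a classical class II chain, had a ratio of 0.55. The median SD of the MHC class II list was 0.35, 0.23, 0.68, 0.62 and 0.57 at 2, 9, 15, 24 and 30 months. That of the follicle list was 0.41, 0.53, 0.60, 0.65 and 0.64, so neither list was widest at 30 months. With the first component removed the MHC class II median was 0.67, with 3 genes at that p. For T cell and NK cell genes the count was 2 of 16 and the median ratio 1.20, which was 0.71 with the first component removed. Leaving out 1 mouse gave 1 (without N5, N7 or N10 of 2 months or N2, N3 or N11 of 30 months) to 4 (without N5 or N9 of 30 months). Cd4, the co-receptor of helper T cells, was at 5.22 to 8.52 CPM at 2 months and 3.33 to 13.3 CPM at 30 months. Macrophage and dendritic cell genes had a median ratio of 0.13 (-0.25 to 0.93 with 1 mouse left out) and 2 of 14 members at that p.

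**Figure D3:**
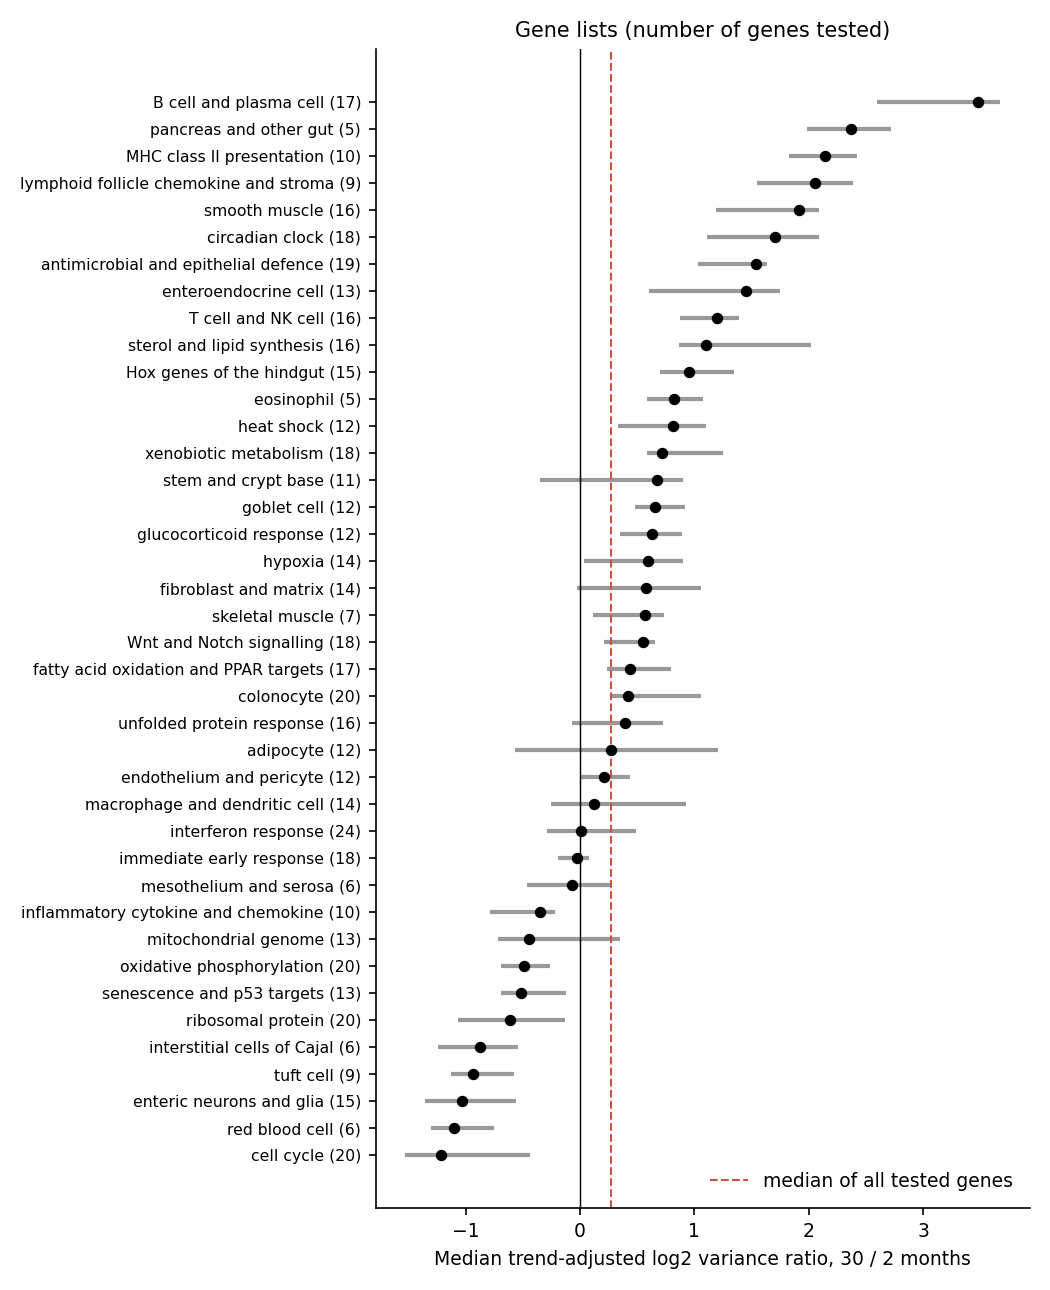
Median trend-adjusted log2 variance ratio (x axis; above 0, larger variance at 30 months) of each gene list with at least 5 genes tested (y axis, number tested in brackets); points are the medians over all 22 mice, grey bars the range when 1 mouse is left out, and the dashed line the median of all tested genes, 0.27. B cell and plasma cell genes are farthest to the right at 3.48, cell cycle genes farthest to the left at -1.21.

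The contractile genes of smooth muscle had the larger variance at 30 months in 16 of 16 members, all of matched mean, with a median ratio of 1.92 (1.19 to 2.09 with 1 mouse left out). Of these, 2 had an unadjusted p under 0.05, Myl9 and Tpm2; leaving out 1 mouse gave 0 to 8, with 0 without N12 and 8 without N10 or N11 of 30 months. The median was 1.19 without N1 of 30 months. Tpm2, a tropomyosin (chr4:43514711-43523765), lay between 436 and 571 CPM at 2 months and between 301 and 677 CPM at 30 months (SDs 0.14 and 0.37), and Myh11, the smooth muscle myosin heavy chain, between 899 and 1393 CPM and between 616 and 1459 CPM (SDs 0.19 and 0.38). Mouse N1 of 30 months was lowest for both. In the summed list mice N1, N12 and N7 of 30 months reached 4577, 5237 and 6379 CPM, below the lowest young mouse at 6840 CPM. The sum of adipocyte genes was 1068 CPM in N1, the highest of all, 494 CPM in N12 and 449 CPM in N7, against 407 to 801 CPM among the young mice. The mean pairwise correlation of the members' deviations was 0.69 at 2 months and 0.87 at 30 months, so its members largely varied together within each group. Ano1, the chloride channel that marks the pacemaker cells of the gut wall, had a ratio of 3.84 (85.4 to 105.6 CPM and 81.8 to 185 CPM), whereas Kit, the receptor of the same cells, had -1.40. Ano1 was the only one of 6 tested genes of these cells with the larger variance at 30 months, and their median ratio was -0.87. Enteric neuron and glia genes had a median ratio of -1.03. In limma 0 of 15 members had an unadjusted p under 0.05 for a larger spread and 1 for a smaller one, Stmn2. The means of 13 of the 15 were lower at 30 months (edgeR, adjusted p of at most 0.05), and 7 had group means within 0.5.

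The core circadian clock consists of Arntl and Clock, which activate the Per, Cry, Nr1d and PAR-bZIP genes (Dbp, Tef, Hlf), whose products feed back on them. Of 18 clock genes tested, 7 had an unadjusted p under 0.05 with the larger spread at 30 months (background 6.78%) and 0 the reverse, and the median ratio was 1.71 (1.11 to 2.09 with 1 mouse left out; 6 to 8 genes); 7 of the 18 had matched means. With the first principal component of the deviations within each age removed, the count was 1 and the median ratio 1.23. Without mouse N11 of 30 months the median was 1.11. Per3, a period gene of the repressor arm, had the largest ratio, 4.39, of the 17 with a mean log2 CPM of at least 1. It lay between 9.12 and 16.6 CPM at 2 months (median 11.5) and between 8.01 and 66.6 CPM at 30 months (median 26.9), with SDs of 0.27 and 0.97 and a difference in mean absolute deviation of 0.61 ± 0.16 (SE; limma, p = 0.00111, adjusted p = 0.269). Mouse N5 was lowest and mouse N11 highest. Tef ranged from 13.4 to 33.8 CPM and from 16.1 to 141 CPM, and Dbp from 2.30 to 15.6 CPM and from 3.04 to 74.2 CPM; N7 was lowest for both at 30 months. Arntl, of the activating arm, ran the other way among the old mice: N11, highest for Per3, was lowest for Arntl at 14.5 CPM, and N5, lowest for Per3, was highest at 69.5 CPM, while the young mice lay between 45.1 and 77.7 CPM. For Tef, Dbp and Arntl, mice N9, N10, N11 and N12 of 30 months lay apart from the other old mice. They had at least 76.3 CPM of Tef against at most 67.5 CPM, and at least 44.8 CPM of Dbp against at most 24.5 CPM. For Arntl they had at most 33.9 CPM against at least 46.7 CPM. Leaving out 1 mouse does not remove such a set, and the split was not tested. Clock, which cycles weakly in many tissues, had SDs of 0.12 and 0.15, and Bhlhe40 had a ratio of -0.55.

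For Per3, Dbp, Tef, Nr1d1 and Nr1d2 the mean was higher at 30 months as well (edgeR log2 changes of 1.26, 2.13, 1.52, 1.36 and 1.07; adjusted p of 0.00425, 0.00847, 0.00224, 0.0235 and 0.0102). Per the methods mice were killed in the morning in cohorts mixed by age; the hour for each mouse was not used here. The median SD of the list was 0.41, 0.53, 0.52, 0.49 and 0.72 at 2, 9, 15, 24 and 30 months, and 12 of its 18 members had their largest SD of the 5 ages at 30 months, beside 16.7% of all genes.

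Per3 and Ciart, a repressor of the clock, are shown by their promoter stretches because they carry exact copies of a clock response motif close to the start of the gene. The sequences are the 250 bases before the start in RefSeq's annotation of GRCm38.p6, read in the direction of the gene; capitals mark TTATGTAA, the binding motif of the PAR-bZIP factors, in Per3 (chr4:151044666-151044915, minus strand) and CACGTG, the E-box bound by the activators, in Ciart (chr3:95882229-95882478, minus strand).
Per3: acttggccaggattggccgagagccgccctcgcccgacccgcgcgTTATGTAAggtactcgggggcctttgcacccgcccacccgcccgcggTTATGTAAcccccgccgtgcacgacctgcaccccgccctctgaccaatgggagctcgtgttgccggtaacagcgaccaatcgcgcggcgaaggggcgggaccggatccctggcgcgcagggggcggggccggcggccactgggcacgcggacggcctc
Ciart: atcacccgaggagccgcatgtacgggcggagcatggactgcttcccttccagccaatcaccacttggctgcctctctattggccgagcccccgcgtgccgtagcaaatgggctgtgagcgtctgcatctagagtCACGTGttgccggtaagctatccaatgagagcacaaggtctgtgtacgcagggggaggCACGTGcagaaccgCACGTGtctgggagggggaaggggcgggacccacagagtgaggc
Per3 holds 2 matches, which begin 205 and 158 bases before the start, and Ciart 3, at 116, 58 and 44 bases. Searched on both strands in the same 250 bases of 27025 promoters, TTATGTAA was present in 0.862% and CACGTG in 6.05%; among the 15 clock genes with a promoter entry, 1 held the first and 5 the second. A match describes the letters and not a bound site. Ciart itself was at 0.286 to 1.98 CPM at 2 months and 0.507 to 16.4 CPM at 30 months, with SDs of 0.75 and 1.54 (unadjusted p = 0.0193, adjusted p = 0.420 in limma).

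**Figure D4:**
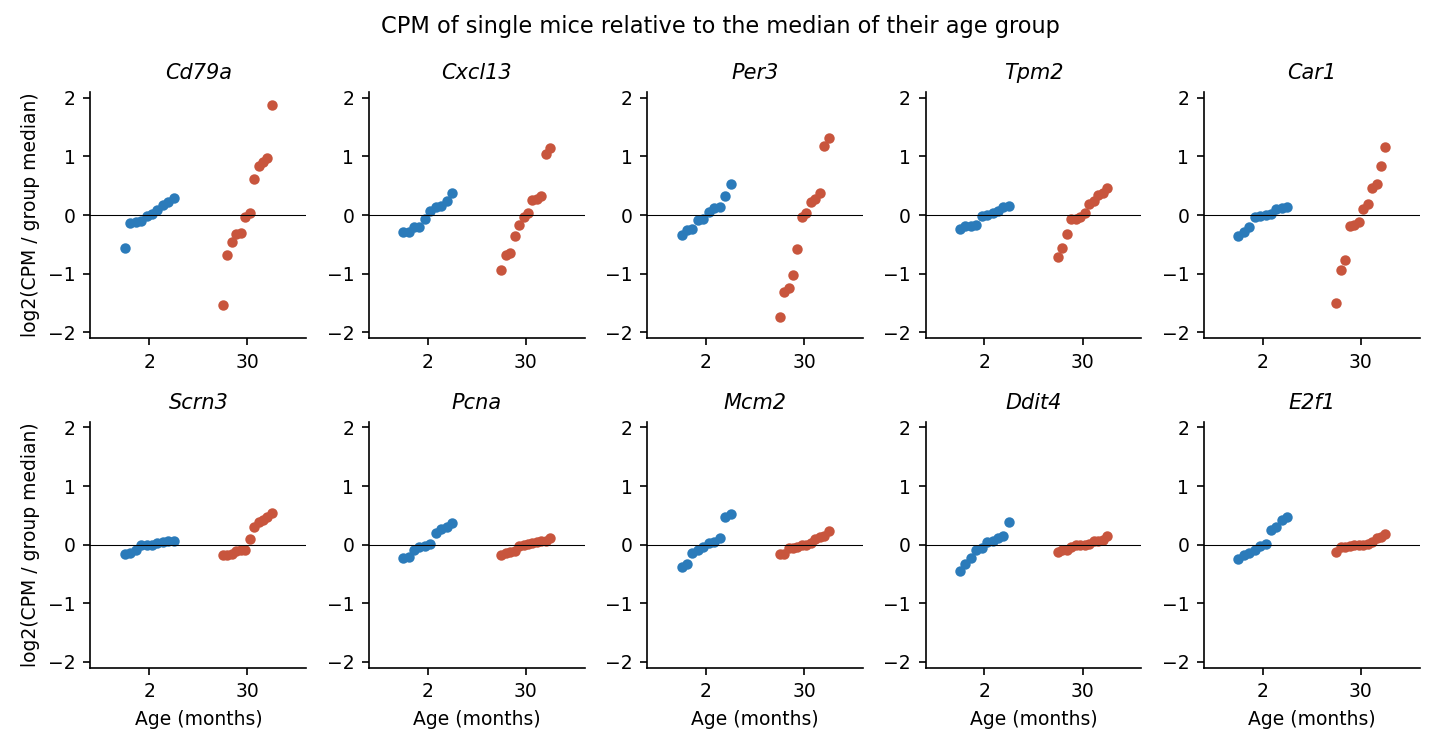
CPM of single mice relative to the median of their own age group on the log2 scale (y axis) at 2 months (blue, n = 10) and 30 months (red, n = 12) for 10 genes, mice ordered by value within each group. Upper panels and Scrn3 show genes whose old mice lie farther apart, with Per3 from 8.01 to 66.6 CPM; Pcna, Mcm2, Ddit4 and E2f1 show genes whose old mice lie closer together.

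Cell cycle genes formed the list with the lowest median ratio, -1.21, with the variance larger at 30 months for 1 of 20 members. Of these, 6 had an unadjusted p under 0.05 with the smaller spread at 30 months (background 2.97%) and 0 with the larger; leaving out 1 mouse gave 3 to 6, with 3 without N3 or N4 of 2 months, and a median between -1.53 and -0.44, the latter without N2 of 2 months. With the first principal component removed the count was 0 and the median -0.06. The 6 were Mcm2, Mcm3, Mcm5, Mcm6, Pcna and Rrm2, which belong to DNA replication (the replicative helicase, the sliding clamp and the supply of nucleotides). Pcna lay between 88.4 and 134 CPM at 2 months (median 104) and between 103 and 127 CPM at 30 months (median 117), with SDs of 0.21 and 0.096 (limma, p = 0.00377, adjusted p = 0.316). Mcm2 ranged from 32.3 to 60.2 CPM and from 42.9 to 56.5 CPM, with SDs of 0.29 and 0.12. The other 14 members had ratios from -1.70 (Bub1) to 0.17 (Ccnb2). In the summed list, mice N1 and N2 of 2 months were low, at 937 and 784 CPM, and N3 and N4 high, at 1547 and 1623 CPM, while the 12 old mice lay between 864 and 1281 CPM. The other young mice lay between 1051 and 1281 CPM, so both ends of the young range rest on these pairs. A fit without both mice of a pair was not run. The list's median SD at 9, 15 and 24 months was 0.30, 0.20 and 0.26.

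Ribosomal protein genes and genes of oxidative phosphorylation, which are strongly expressed in every cell, had small SDs at both ages. Of 20 ribosomal protein genes, 3 had the larger variance at 30 months and 1, Rps2, was at that p in the smaller direction (median ratio -0.61). Of 20 genes of oxidative phosphorylation, 1 had the larger variance and 0 were at that p (median ratio -0.49). On the scale of all 52 libraries the median SDs were 0.10 at 2 months and 0.08 at 30 months for either list, and 0.28 and 0.25 at 9 months, where 20 of 20 ribosomal protein genes and 18 of 20 of the others had their largest SD. Of all genes, 40.4% had their largest SD at 9 months, and the SDs of that age include its outlying mouse N5. Mdm2 and Zmat3 stood at opposite ends of the 12 members of the p53 list with a mean log2 CPM of at least 1. Mdm2, the inhibitor of p53, had a ratio of -3.32 (54.5 to 78.3 CPM at 2 months, 51.5 to 58.7 CPM at 30 months). Zmat3, a p53 target, had 3.65 (32.0 to 37.4 CPM and 24.4 to 42.0 CPM). Cdkn2a was too low to be tested, and Cdkn1a had SDs of 0.23 and 0.16.

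Within the epithelium the picture differed by gene. Colonocyte genes as a list had a median ratio of 0.42 and 1 of 20 members at an unadjusted p under 0.05, Car1, the abundant carbonic anhydrase of the surface epithelium. Car1 (chr3:14766216-14808368) lay between 5926 and 8362 CPM at 2 months (median 7613) and between 1871 and 11777 CPM at 30 months (median 5294), with SDs of 0.18 and 0.76 (limma, p = 0.00569, adjusted p = 0.328). The lowest old mouse was N2 and the highest N1, both outside the range of the young mice, and the group means lay more than 0.5 apart. Guca2a, the gut hormone guanylin, had a ratio of -1.48 (989 to 1621 CPM and 1187 to 1551 CPM). Saa1, an acute phase protein made by the epithelium, lay between 166 and 312 CPM and between 36.5 and 1008 CPM, with SDs of 0.31 and 1.09. Nos2 and the oxidase pair Duox2 and Duoxa2 were the 3 of 19 antimicrobial and defence genes at an unadjusted p under 0.05, all with the larger spread at 30 months, and the median ratio of the list was 1.54, with the variance larger in 16. Leaving out 1 mouse gave 1 to 5 genes, with 1 without N5 of 2 months or N2, N3 or N7 of 30 months and 5 without N2 of 2 months. Nos2 was at 1.82 to 5.22 CPM and then at 2.26 to 24.7 CPM. Reg3b, an antibacterial lectin, was widely spread at both ages (SDs 1.47 and 2.21). Goblet cell genes had a median ratio of 0.66, and Muc2 a ratio of -1.63.

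Heat shock genes varied together at both ages, with mean pairwise correlations of their deviations of 0.78 at 2 months and 0.83 at 30 months. Their median ratio was 0.82, and 2 of 12, Hsph1 and Hspa8, had an unadjusted p under 0.05 with the larger spread at 30 months. Leaving out 1 mouse gave 1 to 3 genes, with 1 without N9 of 2 months or N4, N5 or N6 of 30 months, and a median of 0.38 without N4 and 0.33 without N5. With the first component removed the count was 5 and the median 1.37. Hsph1, a large chaperone of the HSP110 family, lay between 56.8 and 174 CPM at 2 months and between 28.9 and 248 CPM at 30 months, with SDs of 0.58 and 1.18 (limma, p = 0.000699, adjusted p = 0.253). The summed CPM of the list was 6969 and 7530 in mice N4 and N5 of 30 months and at most 5289 in the other old mice. At 9 months 9 of the 12 members had their largest SD, and 0 at 30 months, beside 40.4% and 16.7% of all genes. The 9-month SDs include the outlying mouse N5 of that age. Hspa1a and Hspa1b are near-identical copies and their counts can be split between them.

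**Figure D5:**
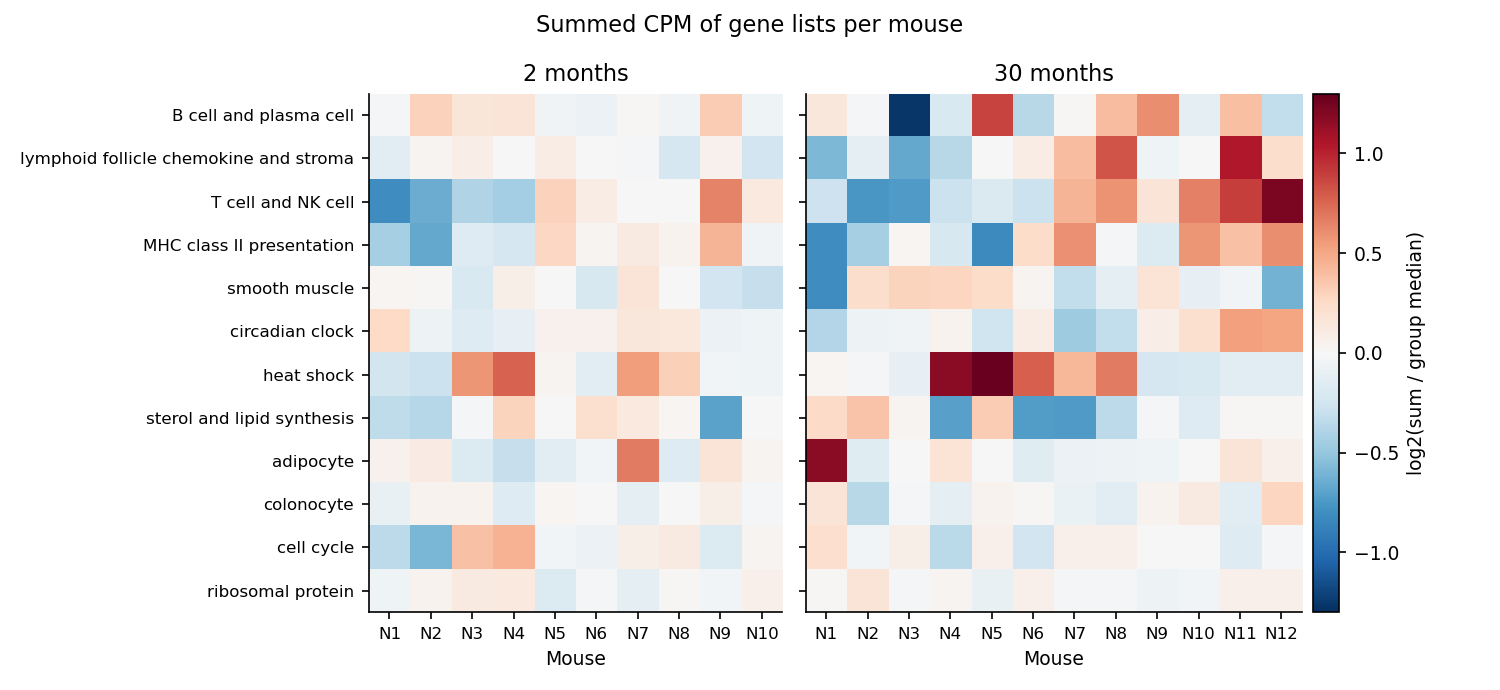
Summed CPM of 12 gene lists (rows) in each mouse (columns) relative to the median of its age group, on the log2 scale (colour, blue lower, red higher), for 2 months on the left and 30 months on the right. At 30 months different mice are high in different lists: N5 in B cell and plasma cell and heat shock genes, N11 in follicle genes, N12 in T cell genes and N1 in adipocyte genes.

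Mast cell genes, of which 3 of 9 could be tested, had a median ratio of 2.79 (1.68 to 2.94 with 1 mouse left out). All 3 had a mean log2 CPM below 1, and 1 had matched means. Their summed CPM at 30 months was 46.3 in mouse N4 and at most 10.5 in the other old mice. In limma 0 of the 3 had an unadjusted p under 0.05 in either direction. Enteroendocrine genes had a median ratio of 1.46 (0.60 without mouse N6 and 0.97 without mouse N2 of 30 months); 2 of 13, Chgb and Nts, were at that p with the larger spread and 1, Sst, with the smaller, and leaving out 1 mouse gave 1 to 4 and 0 to 2. Sterol and lipid synthesis genes had a median ratio of 1.10 with 15 of 16 larger at 30 months and 2, Fdft1 and Lss, at an unadjusted p under 0.05; leaving out 1 mouse gave 0 to 7, with 0 without N4, N6 or N7 of 30 months and 7 without N9 of 2 months, where the median was 2.02. Interferon response genes, of which 21 of 24 had a higher mean at 30 months (edgeR, adjusted p of at most 0.05), had a median ratio of 0.01 and 0 of 24 at an unadjusted p under 0.05 in either direction in limma; leaving out 1 mouse gave up to 2 with the smaller spread and medians from -0.29 to 0.49, and with the first component removed 5 had the smaller spread and the median was -0.39. Of the 24 interferon response genes, 4 had matched means. Of 6 haemoglobin and other red blood cell genes tested, 4 had an unadjusted p under 0.05 in limma with the smaller spread at 30 months. Their median ratio was -1.10, and 1 of the 6 had matched means. Leaving out 1 mouse gave 0 to 5 at that p, with 0 without mouse N3 of 2 months. With the first component removed the count was 0 and the median -0.58. The 5 tested markers of pancreas and other gut segments had a median ratio of 2.37 (1.99 to 2.72 with 1 mouse left out) and 2 members at that p with the larger spread. The Paneth cell lysozyme Lyz1 had the largest ratio, 4.31, of the 4 with a mean log2 CPM of at least 1. Immediate early genes had a median of -0.03 and fibroblast and matrix genes 0.57. Over all lists, 549 of 616 listed genes were tested; 64 of them (11.7%) had an unadjusted p under 0.05 with the larger spread at 30 months and 21 (3.83%) with the smaller, and 26 of the 43 medians lay above that of all genes. The summed CPM was the more spread one at 30 months (SD of log2) in 23 of the 43 lists.

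The mice farthest from their groups were described by their most deviating genes. In mouse N5 of 30 months, the 5 genes farthest above the group mean were all immunoglobulin segments, led by Ighv10-1 at 198 CPM against at most 88.7 CPM in the other 11 old mice. Below it stood Slc15a2, a peptide transporter, at 2.52 CPM against 10.9 to 40.4 CPM, and Nts, the gut hormone neurotensin, at 1.5 CPM against a median of 11.5 CPM in the others, whose lowest mouse was at 0.760 CPM. In mouse N2 of 2 months, Pla2g4c reached 218 CPM against at most 47.7 CPM, Pnliprp2, a lipase, 103 CPM against at most 36.5 CPM and Itln1, an intelectin, 123 CPM against at most 54.5 CPM. The first principal component of the deviations within a group held 26.7% of the variance at 2 months and 20.04% at 30 months, where equal shares would be 11.1% and 9.09%.

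Whether a mouse that stood apart in colon also did so in other organs was examined with the liver and brain libraries of the same animals within one run. At 30 months, over 10 mice, the distances in colon and liver had a Pearson correlation of 0.64 (permutation p = 0.0470, adjusted p = 0.188) and a Spearman correlation of 0.61 (permutation p = 0.0678, adjusted p = 0.128); without the 2 mice farthest from the median in colon r was 0.49. At 2 months the values for colon and liver were 0.26 (permutation p = 0.439) and 0.73 (permutation p = 0.0201, adjusted p = 0.0804). For colon and brain they were 0.24 and 0.10 at 30 months and 0.51 and 0.56 at 2 months, with adjusted permutation p from 0.128 to 0.785. None of the 4 relations passed 0.05 after adjustment.

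At 24 against 2 months, in which the colon mice of 2 months recur, the limma spread test called 5 of 17216 genes in colon (0.029%), 6 of 14261 in liver (0.0421%) and 0 of 17968 in brain (0%; 1407 larger and 296 smaller at an unadjusted p under 0.05). The median trend-adjusted ratios were 0.14, 1.05 and 0.45. Per3 was among the genes called in colon (SDs of 0.78 at 24 months and 0.27 at 2 months, adjusted p = 0.0265) and in liver (1.85 and 0.37, adjusted p = 0.00325), where Dbp was called too (2.58 and 0.71, adjusted p = 0.0300). Fam83f was called in colon with the smaller spread at 24 months (0.047 against 0.20, adjusted p = 0.0168). Differences between the tissues were not tested.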

How the data were processed

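Counts per gene were deposited by the authors as 1 table per tissue, with 55471 genes and 52 libraries in colon. Per the submitters' processing notes, cutadapt 1.12, HISAT2 2.1.0, SAMtools 1.9 and HTSeq 0.6.1 were used with GRCm38.p6 (mm10); their settings and the strand option were not stated in the sources at hand. Libraries were stranded and polyA-selected (paired reads). Genes were kept by edgeR's filterByExpr (minimum count 10, total 15, proportion 0.7) and expressed as log2 CPM after TMM scaling with a prior count of 2. Absolute deviations from the group mean, corrected for group size, were compared with limma 3.58.1 (robust empirical Bayes), under R 4.3.3. The log2 ratio of variances was adjusted by a lowess trend (span 0.3) of variance on mean, and means within 0.5 counted as matched. Levels were tested with edgeR 4.0.16; DESeq2 1.42.0 gave alternative scalings. Adjusted p-values are Benjamini-Hochberg over all genes tested. Scripts were tested on simulated data.

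The groups and all 43 lists were chosen with earlier results of these data known. Genes were named by rule: up to 5 per direction by smallest unadjusted p (no gene was called), at matched mean, mean log2 CPM of at least 1 and with the same sign when any 1 mouse was left out, without receptor segments or unnamed models; the members with the largest and smallest ratio of each list; and the 5 most deviating genes per direction of the mouse farthest from each group. Other list members were named after their values were seen. The study states no test of spread. Replicate numbers did not pair mice of different ages (their deviations did not correlate above 0.1 for any number). Coordinates are those of GENCODE M21 on GRCm38.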

Additional observations from a re-analysis of the deposited data

Results flagged for a closer look

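In groups of 10 mice, 121 sets of values were examined for a single mouse far from the others, and 20 had one. The colon group of 30 months, with 12 mice, was not among these groups, so every gene flagged is from the mice of 2 months. Chance flags about 1 in 20 sets, but many of these genes were named because they deviate in 1 mouse or in spread (Ighv1-53, Pla2g4c, Pnliprp2 and Itln1 for mouse N2 of 2 months), so the number cannot be set against that rate. All of the 20 lay at the high end. The gene values were taken in CPM rather than log2 CPM, and the effect of that scale was not tested. Mouse N7 of 2 months was the highest for 3 genes of adipocytes and lipid synthesis, with 133.1 CPM of Lpl against at most 63.7 CPM in the others, 7.81 CPM of Adrb3 against at most 1.98 CPM, and 94.1 CPM of Acaca against at most 80.3 CPM. Mouse N2 of 2 months was highest for Pla2g4c at 218 CPM, Pnliprp2 at 103 CPM, Itln1 at 123 CPM, Ighv1-53 at 260 CPM against at most 20.1 CPM, mt-Atp6 at 37.0 CPM against at most 17.1 CPM, and Sh2d6, a tuft cell gene, at 21.6 CPM against at most 15.0 CPM. Mouse N1 of 2 months was highest for Ankrd37 at 26.1 CPM against at most 11.7 CPM and for Hoxa7 at 72.7 CPM against at most 52.9 CPM.

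The other genes were, at 2 months, Lyn at 33.7 CPM in N5, Krt10 at 3.28 CPM in N3, Zfp36 at 98.0 CPM in N10, Ighv1-81 at 131 CPM in N3, Igkv4-55 at 14.2 CPM in N9 and Igkv3-1 at 12.6 CPM in N4. Of the distances, that of mouse N5 of 9 months in colon was 0.597 against at most 0.409 in its group, that of mouse N9 of 2 months in liver 0.7501 against at most 0.419, and that of mouse N2 of 30 months in brain 0.309 against at most 0.236.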

How the results depend on the processing

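The counts of called genes stayed at 0 under DESeq2 size factors, total counts, a mean CPM of at least 1, thinning to the smallest library, the variance-stabilizing transformation of DESeq2, removal of the first component, deviations from the median, squared deviations and the non-robust fit. Without a filter beyond 1 count, 1082 of 34070 genes were called (489 larger, 593 smaller; 1031 at matched mean), of which 78 belong to the 17394 genes of the filtered table, and 5892 had an unadjusted p under 0.05, with more of them smaller (3116) than larger (2776) at 30 months, the reverse of the filtered table; the median ratio was 0.16. A prior count of 0.5 called 1 gene, Irx2, and the negative binomial test 2. Leaving out 1 library gave 0 to 1 called genes, also at matched mean, and 0 to 2 for 24 against 9 months (without 9 months N6 or N10). Deviations from the median gave 1078 genes at an unadjusted p under 0.05 in place of 1696.

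The difference in distance between the ages kept its sign throughout. It was 0.0323 to 0.0475 with 1 library left out, 0.0268 (permutation p = 0.0545) with the variance-stabilizing transformation, 0.0363 (permutation p = 0.0576) without receptor segments, an alternative chosen after seeing the data, and 0.00786 (permutation p = 0.457) for the median absolute deviation. With the replicate number as a block it was 0.0353 over the 10 shared numbers, with N11 and N12 of 30 months dropped (exact sign-flip permutation test, p = 0.105). With this block 0 genes were called by limma. The number did not pair mice of different ages. Same-numbered mice correlated by -0.08 to 0.09, with 0 of 10 pairs above 0.1 and 0 of the 10 young mice closest to their own number. Whether the number follows an order of the mice within an age was not tested. For levels the block gave 2722 genes in place of 3941.

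Of 113 named genes, 29 changed the sign of their ratio under some alternative, all of them uncalled. Depth was similar in both groups, and low genes carry counting noise, which the spread includes. With 10 and 12 mice, a single old or young animal can set a variance.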
